A study of Mus musculus with 9 samples.

Results

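Brain endothelium was read here through 10 genes that its cells are known for: the junction and adhesion genes Pecam1, Cdh5 and Cldn5, the receptor genes Flt1 and Tek, and the transporter genes Slc2a1, Mfsd2a, Slco1a4, Slco1c1 and Abcb1a. They were chosen by name, and all 10 matched 1 probe set each, out of 19505 named genes on 22206 probe sets of the array. RNA came from the hippocampus of 9 male C57BL6 mice (the C57BL/6NCrSlc strain in the study's methods), each on an array of its own, and the labels name no transgene or agent. The p3 group was mice 2, 6 and 11 (adult, 47 weeks, declining cognition), whose labels carry the suffix D, read here as decline. The p2 group was mice 3, 8 and 18 (adult, 47 weeks, normal cognition), and the p1 group was mice 7, 19 and 20 (young, 11 weeks, normal cognition). Ages and cognition come from the study's text, which ranked adults on a Y-maze and an open field and took the lowest scorers as p3 and the highest as p2, so the adult groups are the ends of 1 cohort. The ages are those of the tests that set the groups. The mice were also tested at later ages, and the age at dissection was inferred from the study's text. The mice were flushed with PBS before dissection, and the tissue was whole hippocampus, in which vessels are a small part. The comparison of p3 with p2 asks what differs with cognition at 1 age. That of p2 with p1 sets the highest-scoring adults against young mice, so age and the choice of high scorers go together in it. That of p3 with p1 holds both age and cognition.

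The blood-brain barrier is formed by endothelial cells that line brain capillaries. Tight junctions close the gaps between these cells, little is carried across them in vesicles, and transporters in their membranes let in nutrients and pump out foreign compounds. Pericytes and astrocyte endfeet wrap the capillaries and help keep the barrier, which is known to change with age in the hippocampus. Endothelial genes are driven by ETS and SOX transcription factors, and barrier genes also by Wnt signalling through TCF/LEF factors. In bulk tissue, fewer endothelial cells and less RNA per cell cannot be told apart.

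Of the 10 genes, 8 have a promoter in the RefSeq table of GRCm38.p6, here the 250 bases before the start of transcription. Each was searched on both strands for CNGGAAG (ETS), CTTTGA (TCF/LEF) and ACAAAG (SOX), and no matches shared a base. Shown are Cldn5, the member with the smallest p below, Slco1c1, the one that varied most between mice, and Abcb1a, which held the most matches. Matches on either strand are in capitals. Cldn5 lies on the plus strand, at chr16:18776597-18776846, and held no match in this window.
Cldn5: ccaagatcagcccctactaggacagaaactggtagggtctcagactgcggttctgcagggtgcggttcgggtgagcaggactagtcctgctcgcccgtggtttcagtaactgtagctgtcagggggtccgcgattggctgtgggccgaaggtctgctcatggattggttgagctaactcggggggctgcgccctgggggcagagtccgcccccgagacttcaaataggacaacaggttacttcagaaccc
Slco1c1 is on the plus strand too, at chr6:141524104-141524353, with an ETS match at -175 to -169 and a SOX match at -140 to -135, counted from the start.
Slco1c1: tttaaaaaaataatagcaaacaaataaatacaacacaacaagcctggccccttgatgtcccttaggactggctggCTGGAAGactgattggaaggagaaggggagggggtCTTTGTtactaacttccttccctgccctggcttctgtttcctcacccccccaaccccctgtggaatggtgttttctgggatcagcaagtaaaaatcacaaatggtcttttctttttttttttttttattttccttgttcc
Abcb1a, on the plus strand at chr5:8566841-8567090, held 1 SOX match and 2 TCF/LEF matches.
Abcb1a: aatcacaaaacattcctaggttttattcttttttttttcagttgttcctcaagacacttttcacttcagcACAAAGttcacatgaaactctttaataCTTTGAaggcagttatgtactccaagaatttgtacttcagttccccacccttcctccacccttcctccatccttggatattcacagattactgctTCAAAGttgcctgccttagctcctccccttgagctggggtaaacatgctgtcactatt
Among all 8 promoters, ETS letters were in 2 (Flt1 and Slco1c1), TCF/LEF letters in 2 (Abcb1a and Mfsd2a) and SOX letters in 3 (Abcb1a, Slco1c1 and Tek). The same letters stood in 26.6%, 13.8% and 16.5% of 32851 RefSeq mouse promoters of that length. A match is a description of these letters, not a bound site.

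The deposited values are log2 signals normalised by the authors across arrays. In p2 mice, 15915 of the 22206 values per mouse (71.7%) form a straight line by row and were not used, so 6291 probe sets were compared with p2 and 22206 between p3 and p1. Of the 10 genes, 4 kept p2 values (Tek, Slc2a1, Mfsd2a and Abcb1a) and 6 have none here. The median signal was 6.65 to 6.71 in p3 and 6.62 to 6.68 in p1 arrays. Any pair of arrays correlated at 0.990 to 0.995 across the 6291 probe sets with p2 values. Markers of neighbouring tissue differed between mice. Over 14 choroid plexus markers, the mean signal, centred on each gene's mean, reached 2.56 in p3 mouse 11 and 2.81 in p1 mouse 19, while the rest of these mice lay at -1.64 to -1.05. For 13 of the 14 markers these were the 2 highest of the p3 and p1 mice. Over 12 thalamus markers only p3 mouse 11 was high, at 2.15, against -0.61 to -0.19 elsewhere in p3 and p1. Hippocampal neuron markers were present in every mouse, with Prox1 of the dentate gyrus between 11.90 and 12.12 in p3, 11.78 and 13.18 in p2, and 12.01 and 13.19 in p1. Values without both p3 mouse 11 and p1 mouse 19 are given for each gene described below at an unadjusted p under 0.05 and for others in which these mice stood apart.

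None of the 10 genes passed the study's threshold in any comparison, which asks for a change of more than 1.5 times together with p under 0.05 before adjustment. In limma's fit it was passed by 1.54% of probe sets between p3 and p2, 1.29% between p2 and p1, and 1.70% between p3 and p1. An adjusted p under 0.05 was reached by 0.00% of probe sets in each comparison. At an unadjusted p under 0.05, the calls were 0 of 4 members between p3 and p2 (5.33% of all probe sets), 0 of 4 between p2 and p1 (4.26%) and 1 of 10, Cldn5, between p3 and p1 (5.71%). Between p3 and p1 the mice of both groups did not overlap for 1 of 10 members, again Cldn5, against 10.4% of all probe sets. Beside such shares, 1 gene in 10 is not a result about these genes. The 3 comparisons share mice, so they are not separate evidence.

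Among the adhesion and junction genes, Cldn5 encodes claudin-5, the main sealing protein of tight junctions between brain endothelial cells. Its log2 values were 8.05, 8.05 and 8.0 in p3 mice 2, 6 and 11, against 8.56, 8.46 and 8.25 in p1 mice 7, 19 and 20. All p3 mice lay below all p1 mice, and the p3 mice were within 0.05 of each other. The log2 difference was -0.39 (SE 0.14, 95% interval -0.72 to -0.06), or 0.763 of the p1 level, with an unadjusted p of 0.0264 and an adjusted p of 0.860 from limma. An exact two-sided permutation test over the mice gave p = 0.1, the smallest that 3 against 3 mice allow. Leaving out 1 mouse at a time kept the difference between -0.48 and -0.32, and the unadjusted p was under 0.05 in only 1 of the 6 fits, the one without p1 mouse 20. Without p3 mouse 11 and p1 mouse 19 the difference was -0.36 (unadjusted p = 0.123).

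Pecam1, an adhesion molecule at contacts between endothelial cells that also sits on leukocytes and platelets, had values of 7.32, 7.10 and 7.45 in p3 mice 2, 6 and 11, against 7.59, 7.51 and 7.26 in p1 mice 7, 19 and 20. The groups overlapped, and the difference was -0.16 (95% interval -0.54 to 0.21). Cdh5 encodes VE-cadherin, which holds endothelial cells together at adherens junctions. Its values were 7.99, 8.21 and 8.13 in p3 mice 2, 6 and 11, against 8.22, 7.46 and 7.65 in p1 mice 7, 19 and 20. The p1 mouse 7 alone stood at the p3 level, and the other p1 mice lay below it. The difference was 0.33 (95% interval -0.15 to 0.81), and with 1 mouse left out it ran from 0.18 without p1 mouse 19 (unadjusted p = 0.436) to 0.56 without p1 mouse 7 (unadjusted p = 0.0125), the 1 fit of 6 with p under 0.05. Without p3 mouse 11 and p1 mouse 19 it was 0.17 (unadjusted p = 0.527). The 3 junction and adhesion genes did not share a direction between p3 and p1.

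**Figure D1:**
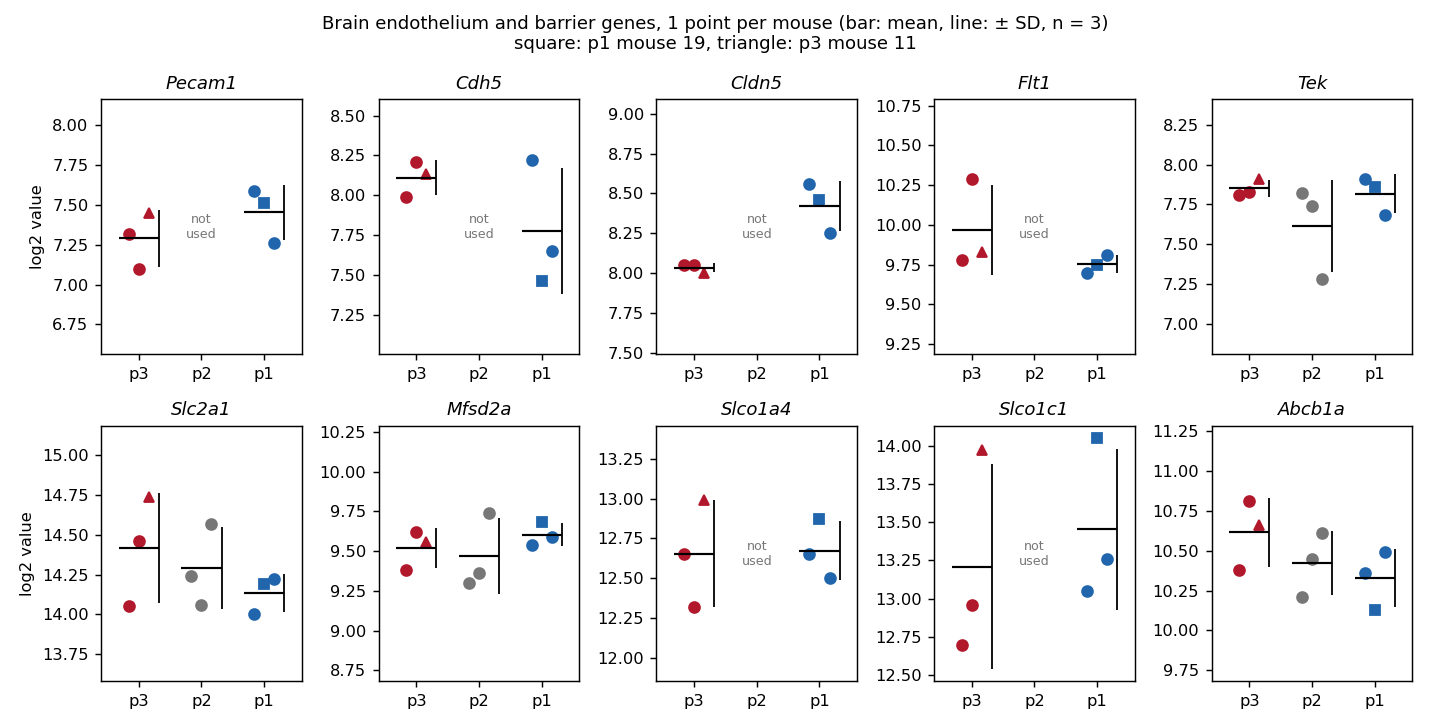
Log2 value of each of the 10 genes (vertical axis, own range per gene) in the p3, p2 and p1 mice, 1 point per mouse, with the group mean as a bar and ± SD as a line (n = 3). Cldn5 is the 1 gene whose p3 and p1 mice do not overlap, and Slco1c1 and Slco1a4 are highest in p3 mouse 11 (triangle) and p1 mouse 19 (square).

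The receptor genes read signals that shape and steady vessels. Flt1 encodes a VEGF receptor that binds the growth factor tightly and limits how much of it reaches other receptors. Its values were 9.78, 10.29 and 9.83 in p3 mice 2, 6 and 11, and 9.70, 9.75 and 9.81 in p1 mice 7, 19 and 20. One p3 mouse, mouse 6, stood above the rest, and the difference of 0.21 (95% interval -0.18 to 0.61) was 0.05 without it.

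Tek encodes the angiopoietin receptor that keeps resting vessels stable, and it was measured in all 9 mice. Its values were 7.81, 7.83 and 7.91 in p3 mice 2, 6 and 11, then 7.82, 7.74 and 7.28 in p2 mice 3, 8 and 18, and 7.91, 7.86 and 7.68 in p1 mice 7, 19 and 20. The p2 mouse 18 was the lowest of the 9, and all groups overlapped. The difference was 0.24 for p3 minus p2 (95% interval -0.13 to 0.60), -0.20 for p2 minus p1 (-0.57 to 0.16) and 0.03 for p3 minus p1 (-0.33 to 0.40). Without p2 mouse 18, p3 minus p2 was 0.07 and p2 minus p1 was -0.04.

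Slc2a1 encodes GLUT1, which carries glucose across the barrier and is also made by glia. Its values were 14.05, 14.46 and 14.74 in p3 mice 2, 6 and 11, then 14.24, 14.06 and 14.57 in p2 mice 3, 8 and 18, and 14.00, 14.19 and 14.22 in p1 mice 7, 19 and 20. The group means were 14.42 ± 0.35 in p3, 14.29 ± 0.26 in p2 and 14.14 ± 0.12 in p1 (SD, n = 3 each), and neighbouring groups overlapped. Differences were 0.13 for p3 minus p2 (95% interval -0.32 to 0.57), 0.15 for p2 minus p1 (-0.29 to 0.60) and 0.28 for p3 minus p1 (-0.16 to 0.72). The p3 minus p1 difference was 0.46 with an unadjusted p of 0.0377 when p3 mouse 2 was left out, and 0.12 (unadjusted p = 0.570) when p3 mouse 11 was.

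Mfsd2a encodes a lipid transporter that brings lysophospholipids carrying docosahexaenoic acid into the brain and holds back vesicle transport in endothelial cells. Its values were 9.38, 9.62 and 9.56 in p3 mice 2, 6 and 11, then 9.30, 9.36 and 9.74 in p2 mice 3, 8 and 18, and 9.54, 9.68 and 9.59 in p1 mice 7, 19 and 20. The p1 mice lay close together, inside the range of the p2 mice. Differences were small, with 0.05 for p3 minus p2 (95% interval -0.29 to 0.39), -0.14 for p2 minus p1 (-0.48 to 0.20) and -0.08 for p3 minus p1 (-0.42 to 0.26).

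Abcb1a encodes P-glycoprotein, the efflux pump that returns many drugs to the blood. Its values were 10.38, 10.81 and 10.66 in p3 mice 2, 6 and 11, then 10.21, 10.45 and 10.61 in p2 mice 3, 8 and 18, and 10.36, 10.13 and 10.49 in p1 mice 7, 19 and 20. The means were 10.62 ± 0.22 in p3, 10.42 ± 0.20 in p2 and 10.33 ± 0.18 in p1 (SD, n = 3 each), with overlap between all groups. Differences were 0.19 for p3 minus p2 (95% interval -0.19 to 0.57), 0.10 for p2 minus p1 (-0.28 to 0.48) and 0.29 for p3 minus p1 (-0.09 to 0.67). With 1 mouse left out, p3 minus p1 ran from 0.19 without p1 mouse 19 (unadjusted p = 0.333) to 0.41 without p3 mouse 2 (unadjusted p = 0.0490), the 1 fit of 6 with p under 0.05. It was 0.17 without p3 mouse 11 and p1 mouse 19 (unadjusted p = 0.451). Its near-identical neighbour Abcb1b, at 7.94, 8.70 and 8.31 in p3, 8.34, 8.64 and 8.40 in p2 and 7.93, 8.06 and 8.38 in p1, has a probe set of its own, and how far the probes tell the pair apart is not given in the sources used here.

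Slco1a4 and Slco1c1 encode organic anion transporters, of which Slco1c1 carries thyroxine and is also known from the choroid plexus and astrocytes. Slco1c1 stood at 12.70, 12.96 and 13.97 in p3 mice 2, 6 and 11, and at 13.05, 14.05 and 13.26 in p1 mice 7, 19 and 20. The p3 mouse 11 and the p1 mouse 19, whose choroid plexus markers were high, held its highest values. Slco1c1 had the largest SD of the 10 genes in both groups, 0.67 in p3 and 0.53 in p1. The p3 minus p1 difference was -0.24 (95% interval -1.09 to 0.60) in all mice and -0.33 (unadjusted p = 0.157) without these 2, where both p3 mice lay below both p1 mice. The choroid plexus markers did not come level without these 2. Their mean was -1.64 and -1.48 in p3 mice 2 and 6, against -1.21 and -1.05 in p1 mice 7 and 20.

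Slco1a4 stood at 12.65, 12.32 and 12.99 in p3 mice 2, 6 and 11, and at 12.65, 12.87 and 12.50 in p1 mice 7, 19 and 20. The same mice, p3 mouse 11 and p1 mouse 19, were again highest in their groups. The difference was -0.02 (95% interval -0.48 to 0.44), and -0.09 without these 2. Choroid plexus tissue was not tested as the source of either pattern. The tight junction gene Ocln (occludin), present in both endothelium and choroid plexus, was also highest in these mice, at 7.78, 8.01 and 9.27 in p3 mice 2, 6 and 11 against 8.73, 9.34 and 8.27 in p1 mice 7, 19 and 20. Its difference was -0.43 (unadjusted p = 0.327) in all mice and -0.61 (unadjusted p = 0.0358) without the pair. Without the pair, 11 of 14 choroid plexus markers were still lower in p3 than in p1 and 3 were higher. Ttr of these markers then differed by -3.72 (unadjusted p = 0.000322 from limma), and a link with Ocln was not tested. Cldn5 was not high in p3 mouse 11, where it had its lowest value.

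**Figure D2:**
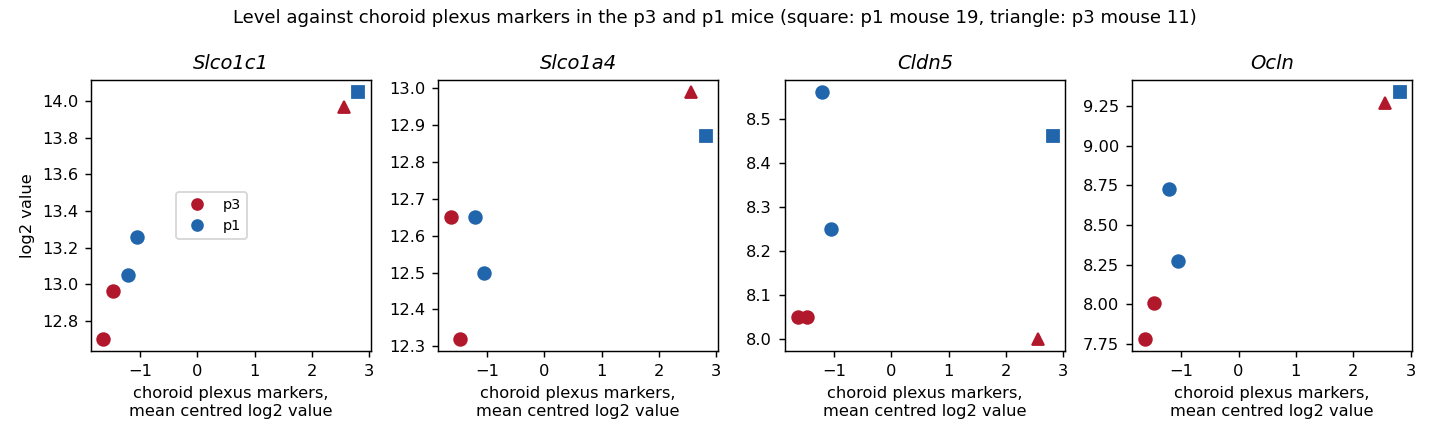
Log2 value of Slco1c1, Slco1a4, Cldn5 and Ocln (vertical axes) in the p3 and p1 mice against the mean centred log2 value of 14 choroid plexus markers (horizontal axes). The p3 mouse 11 (triangle) and the p1 mouse 19 (square) stand apart at 2.56 and 2.81 and are highest for Slco1c1, Slco1a4 and Ocln, while Cldn5 is 8.0 and 8.46 in them.

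Over the 10 genes, 5 were higher and 5 lower in p3 than in p1, with a median difference of 0.01 beside 0.0033 over all probe sets. The mean of the 10, each centred on its own mean, was -0.14, 0.01 and 0.17 in p3 mice 2, 6 and 11, and 0.00, 0.04 and -0.08 in p1 mice 7, 19 and 20. The lowest and the highest mouse were both in p3. Between p3 and p2 all 4 measured genes were higher in p3, by 0.05 to 0.24 (median 0.16, beside 0.01 over all 6291 probe sets), and 3 of 4 still were without p3 mouse 11 and p1 mouse 19. Between p2 and p1, 2 were higher and 2 lower. The 95% interval lay within a fold change of 1.5 for 3 of 4 genes in either comparison with p2, and for 4 of 10 (Tek, Slco1a4, Pecam1 and Mfsd2a) between p3 and p1. For the other 6 the interval reached past that fold.

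**Figure D3:**
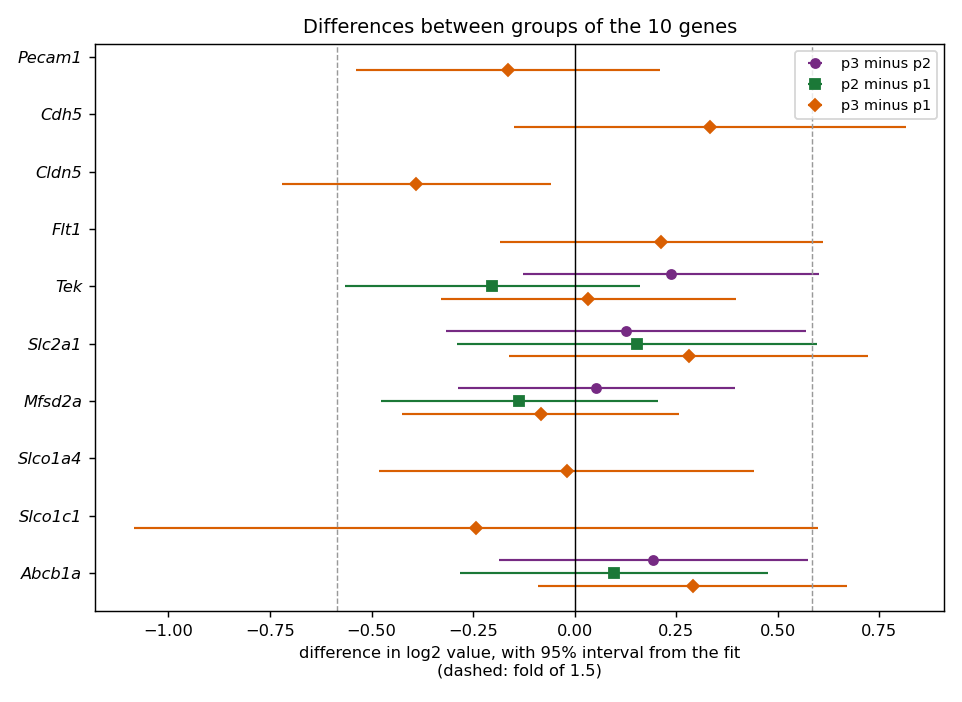
Differences in log2 value of the 10 genes (horizontal axis) for p3 minus p2, p2 minus p1 and p3 minus p1, with the 95% interval of the fit as a line and folds of 1.5 as dashed lines. Cldn5, at -0.39, is the 1 gene whose interval does not cross 0, and the 6 genes with no p2 values have 1 interval each.

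The genes outside every list whose levels over the 6 p3 and p1 mice were most like the mean of the 10 were Wnt3, Tyrp1, Mfsd14a, Stag3 and Stag2, with Pearson's r of 0.991, 0.991, 0.987, 0.987 and 0.986 across these mice. They are the highest of 19326 genes compared, so values this high are a description only.

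Other vascular genes were read from lists written by role. Genes named here beyond the first 3 of a list and those past the study's threshold were picked after their values were seen. The 10 lists of vascular genes hold 112 genes measured in p3 and p1 mice, of which 27 have p2 values. Between p3 and p1, 55 were higher and 57 lower, and 1 passed the threshold (Dcn, higher in p3), with 5 higher and 4 lower at an unadjusted p under 0.05 in limma's fit. That is 1 and 9 of 112 genes, beside 1.70% and 5.71% of all probe sets. Between p2 and p1, 13 were higher and 14 lower, and 1 passed (Eng, higher in p2), with 2 at an unadjusted p under 0.05, beside 1.29% and 4.26% of all probe sets. Between p3 and p2, 11 were higher and 16 lower, 0 passed and 1 had an unadjusted p under 0.05, beside 1.54% and 5.33%. Without p3 mouse 11 and p1 mouse 19, 5 of the 112 passed the threshold between p3 and p1 (Dcn, Angpt1 and Vegfb higher, Fli1 and Ocln lower), where 3.76% of all probe sets did. In that fit 9 of the 112 had an unadjusted p under 0.05, beside 5.9% of all probe sets. Between p2 and p1, 3 of 27 had one, beside 4.9%. These were Nrp2 at 0.48, Eng at 0.52 and Cavin2 at 0.47, all higher in p2. Between p3 and p2, 1 of 27 had one (Slc19a3, lower in p3), beside 4.74%. Without both, the counts in p3 against p1 were 12 higher and 1 lower for the VEGF and angiopoietin list, and the larger side turned for the Wnt list (7 higher, 8 lower), vesicle genes (3 and 4), leukocyte adhesion genes (3 and 4) and smooth muscle markers (4 and 3).

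Of 14 other endothelial identity genes, 6 were higher and 8 lower in p3 than in p1, with a median of -0.02. The adhesion genes Icam2 and Esam differed by -0.03 and -0.04, and the sialomucin gene Emcn by -0.10. Fli1, an ETS factor of endothelial and blood cells, was at 7.18, 7.22 and 7.21 in p3 mice 2, 6 and 11, against 7.87, 7.44 and 7.74 in p1 mice 7, 19 and 20. As with Cldn5, all p3 mice lay below all p1 mice and close to each other. The difference was -0.48 (SE 0.16, unadjusted p = 0.0151, adjusted p = 0.860 from limma), -0.60 to -0.39 with 1 mouse left out, and -0.61 without p3 mouse 11 and p1 mouse 19. Its related factor Erg was 7.06, 7.59 and 7.15 in p3 mice, against 7.32, 7.02 and 7.04 in p1 mice, and overlapped.

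Of 12 other junction genes, 7 were higher and 5 lower in p3 than in p1, none with an unadjusted p under 0.05. Tjp1, the scaffold under tight junctions, differed by -0.15 and F11r, a junctional adhesion molecule, by 0.03. Of 17 other barrier transporters, 13 were lower and 4 higher in p3 than in p1, with a median of -0.12. The efflux pumps Abcg2 and Abcc4 differed by -0.10 and 0.10. Tfrc, the transferrin receptor that brings in iron, was at 11.35, 11.48 and 11.29 in p3 mice 2, 6 and 11, against 11.70, 11.61 and 11.80 in p1 mice 7, 19 and 20. These groups did not overlap, and the difference was -0.33 (unadjusted p = 0.0456), but p was under 0.05 in only 1 of 6 fits with a mouse left out, and was 0.119 without p3 mouse 11 and p1 mouse 19. Slc19a3, a thiamine transporter, was 7.50, 7.30 and 7.78 in p3 mice, 7.78, 7.79 and 7.78 in p2 mice and 7.78, 7.95 and 7.87 in p1 mice. Its p3 minus p1 difference was -0.34 (unadjusted p = 0.0440), -0.23 without p3 mouse 6 (unadjusted p = 0.165), and p was under 0.05 in 1 of 6 fits with a mouse left out. Against p2, all 5 measured transporters of this list were lower in p3, with differences of -0.26 to -0.08, none at an unadjusted p under 0.05 in all mice. Slc19a3, without p3 mouse 11 and p1 mouse 19, differed by -0.38 between p3 and p2 (unadjusted p = 0.0348) and by -0.43 between p3 and p1 (unadjusted p = 0.0331). Of all probe sets, 4.74% and 5.9% then had an unadjusted p under 0.05. Choroid plexus markers were not level between p3 and p2 either. Over the 4 with p2 values, their mean was -1.42 and -0.99 in p3 mice 2 and 6. It was 0.04, -1.23 and -0.55 in p2 mice 3, 8 and 18, and a link with Slc19a3 was not tested.

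Of 13 other VEGF and angiopoietin genes, 9 were higher and 4 lower in p3 than in p1, with a median of 0.15. Kdr, the main signalling receptor for VEGF, differed by -0.17 between p3 and p1, Flt4, a receptor of lymphatic vessels, by 0.15, and Nrp2, a VEGF co-receptor, by -0.06. Eng encodes endoglin, a TGF-beta co-receptor of endothelial cells. It was at 7.88, 8.05 and 8.05 in p3 mice 2, 6 and 11, at 8.19, 7.77 and 8.22 in p2 mice 3, 8 and 18, and at 7.76, 7.30 and 7.32 in p1 mice 7, 19 and 20. Every adult mouse was above every p1 mouse, though p2 mouse 8 exceeded p1 mouse 7 by only 0.01. Eng rose in p2 against p1 by the study's threshold, with a log2 difference of 0.60 (SE 0.18, fold 1.52, unadjusted p = 0.00692, adjusted p = 0.999 from limma). With 1 mouse left out it was 0.52 to 0.75 and passed the threshold in 2 of 6 fits, while its unadjusted p was under 0.05 in 6 of 6. Without p3 mouse 11 and p1 mouse 19 it was 0.52 (unadjusted p = 0.0364). For p3 minus p1 it was 0.53 (unadjusted p = 0.0132) in all mice and 0.43 (unadjusted p = 0.0993) without p3 mouse 11 and p1 mouse 19, and p3 minus p2 was -0.07 (95% interval -0.46 to 0.33). The p2 and p3 comparisons with p1 share the p1 mice.

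Among the ligands, Vegfb, a VEGF family member, was at 8.66, 8.58 and 8.64 in p3 mice 2, 6 and 11, against 8.16, 8.47 and 7.88 in p1 mice 7, 19 and 20. The groups did not overlap, with a difference of 0.46 (unadjusted p = 0.0313), 0.31 to 0.61 with 1 mouse left out, where p was under 0.05 in 1 of 6 fits. It was 0.60 without p3 mouse 11 and p1 mouse 19 (unadjusted p = 0.0207). Angpt1, the ligand that activates the Tek receptor, was at 9.84, 10 and 9.08 in p3 mice 2, 6 and 11, against 8.31, 9.79 and 9.15 in p1 mice 7, 19 and 20. It overlapped, with a difference of 0.56 (unadjusted p = 0.181) in all mice and 1.19 (unadjusted p = 0.00579) without p3 mouse 11 and p1 mouse 19. Vegfa differed by -0.03.

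**Figure D4:**
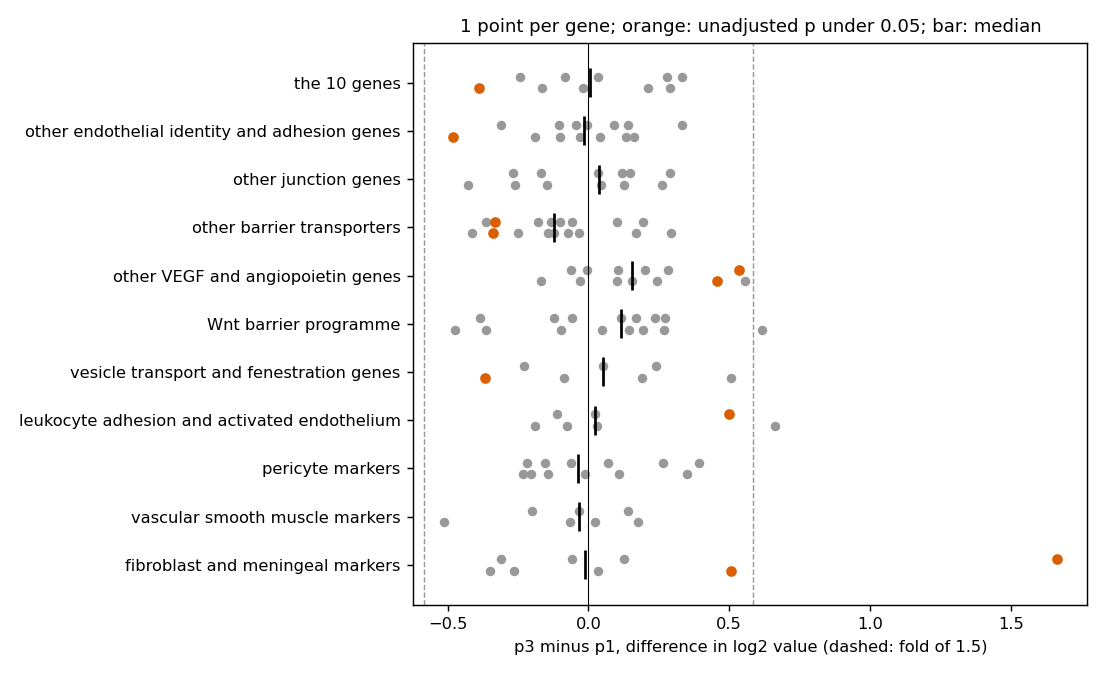
Differences of p3 minus p1 in log2 value (horizontal axis) for the 10 genes and 10 lists of vascular genes, 1 point per gene, with the list's median as a bar, folds of 1.5 as dashed lines and genes at an unadjusted p under 0.05 in orange. Medians run from -0.12 for other barrier transporters to 0.15 for other VEGF and angiopoietin genes, and Dcn, at 1.66, is the farthest point.

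The Wnt genes of the barrier gave 9 higher and 6 lower of 15 in p3 against p1, none at an unadjusted p under 0.05. Without p3 mouse 11 and p1 mouse 19, 1 of the 15 was, Apcdd1, at -0.57 (unadjusted p = 0.0319 from limma). Of all probe sets, 5.9% then were. The co-receptor genes Adgra2 and Reck differed by -0.06 and 0.14, and the receptor gene Fzd4 by 0.27. The neural ligands Wnt7a and Wnt7b differed by -0.47 and -0.39, and without p3 mouse 11 and p1 mouse 19 by -0.07 and -0.48. Lef1, a TCF/LEF factor, was at 6.16, 5.91 and 7.70 in p3 mice 2, 6 and 11, against 5.57 to 6.02 in p2 mice and 5.69 to 6.29 in p1 mice. Only p3 mouse 11 stood out, the mouse in which thalamus markers were high, and whether they are linked was not tested. Without p3 mouse 11 and p1 mouse 19, Lef1 differed by 0.045 between p3 and p1 (unadjusted p = 0.863 from limma). Of 7 genes of vesicle transport and fenestration, 4 were higher and 3 lower in p3. Cav1 and Cav2, which form caveolae, differed by -0.23 and 0.05. Cavin1, a coat protein of caveolae, was at 5.24, 5.29 and 5.52 in p3 mice against 5.74, 5.79 and 5.62 in p1 mice, a difference of -0.37 (unadjusted p = 0.0362) that kept p under 0.05 in 2 of 6 fits with a mouse left out. It was -0.42 (unadjusted p = 0.0621) without p3 mouse 11 and p1 mouse 19. The Cavin1 values lay under 6, the mean log2 value used below as a minimum level. Plvap, the diaphragm protein of leaky vessels, differed by -0.09.

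Of 7 genes of leukocyte adhesion and activated endothelium, 4 were higher and 3 lower in p3 than in p1. Icam1 differed by 0.02 and Sele by -0.08. Vcam1, known to be made by aged brain endothelium and by choroid plexus, was at 9.51, 9.38 and 10.14 in p3 mice 2, 6 and 11, at 9.25, 9.36 and 9.20 in p2 mice 3, 8 and 18, and at 9.28, 10.43 and 9.65 in p1 mice 7, 19 and 20. Again p3 mouse 11 and p1 mouse 19 were highest. Without both, Vcam1 differed by -0.02 between p3 and p1 (unadjusted p = 0.918 from limma). Madcam1, an addressin gene with signals of 3.79, 3.37 and 3.50 in p3 against 3.25, 3.13 and 2.78 in p1, differed by 0.50 (unadjusted p = 0.0256), and by 0.57 (unadjusted p = 0.0613) without p3 mouse 11 and p1 mouse 19. These Madcam1 signals were among the low ones of the arrays. Selp differed by 0.51 between p2 and p1 (unadjusted p = 0.0408) and by -0.48 between p3 and p2 (unadjusted p = 0.0517). The first kept p under 0.05 in 1 of 6 fits with a mouse left out and was 0.45, no longer under that p, without p3 mouse 11 and p1 mouse 19. Selp was at 2.75, 3.68 and 3.07 in p3, at 3.57, 3.62 and 3.74 in p2 and at 3.07, 3.02 and 3.32 in p1, among the low signals of these arrays.

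Cells next to the endothelium were read in the same way. Of 12 pericyte markers, 5 were higher and 7 lower in p3 than in p1, none at an unadjusted p under 0.05. The first 3 of the list, Pdgfrb, Cspg4 and Kcnj8, differed by 0.07, -0.20 and 0.11. Rgs5, a pericyte signalling regulator, was at 10.91, 11.48 and 11.28 in p3 mice 2, 6 and 11, at 10.55, 11.08 and 10.74 in p2 mice 3, 8 and 18, and at 10.84, 10.76 and 10.89 in p1 mice 7, 19 and 20. The p3 mice overlapped the p2 mice but stood above all p1 mice, by as little as 0.02. The difference was 0.43 for p3 minus p2 (unadjusted p = 0.0408) and 0.39 for p3 minus p1 (unadjusted p = 0.0590). Without p3 mouse 6, p3 minus p2 was 0.31 (unadjusted p = 0.153), and without p3 mouse 11 and p1 mouse 19 it was 0.41 (unadjusted p = 0.108). Of 7 smooth muscle markers, 3 were higher and 4 lower in p3 than in p1, with Acta2 at -0.51 (unadjusted p = 0.0575), Tagln at -0.07 and Myh11 at 0.02. Of 10 astrocyte markers 8 were higher, with Aqp4, the water channel of endfeet, at -0.02, Gfap at 0.01 and Slc1a2 at 0.08.

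Fibroblast and meningeal markers were split, with 4 higher and 4 lower of 8 between p3 and p1. Dcn, the matrix proteoglycan decorin, was at 13.38, 12.73 and 12.87 in p3 mice 2, 6 and 11, against 10.06, 12.09 and 11.84 in p1 mice 7, 19 and 20. All p3 mice lay above all p1 mice, and p1 mouse 7 was the lowest by far. Dcn rose by the study's threshold, with a log2 difference of 1.66 (SE 0.48, unadjusted p = 0.00851, adjusted p = 0.860 from limma). It passed the threshold in 6 of 6 fits with a mouse left out, at 1.03 to 2.04, the lowest without p1 mouse 7, and was 2.11 (unadjusted p = 0.00732) without p3 mouse 11 and p1 mouse 19. Ogn, also of this list, was higher in p3 by 0.51, with an unadjusted p under 0.05 in limma's fit. That p held in 5 of 6 fits with a mouse left out. Without p3 mouse 11 and p1 mouse 19 the Ogn difference was 0.445 (unadjusted p = 0.0551). The collagen genes Col1a1, Col1a2 and Col3a1 of the same list differed by 0.03, -0.31 and -0.26.

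**Figure D5:**
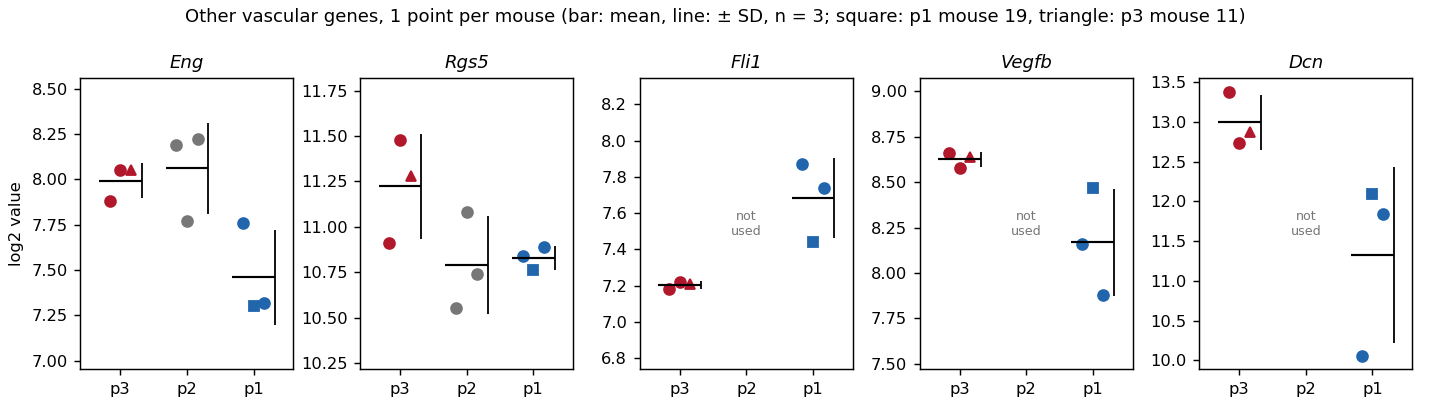
Log2 value (vertical axis, own range per gene) of Eng, Rgs5, Fli1, Vegfb and Dcn in the p3, p2 and p1 mice, 1 point per mouse, with the group mean as a bar and ± SD as a line (n = 3). Eng is higher in all p3 and p2 mice than in p1, and the p3 mice of Fli1 lie between 7.18 and 7.22, below the p1 mice.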

How the data were processed

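Hippocampal RNA of 9 mice was hybridised to Affymetrix Mouse Clariom S arrays, and the authors deposited log2 values per probe set, normalised in the Transcriptome Analysis Console. How background was corrected and probes were summarised is not given in the sources used here. Values in the p2 columns with more than 2 decimals, 15915 per mouse, lie on a filled line and were set to missing. This leaves the first rows of the table, a block and not a random sample. Gene names came from the platform annotation (19572 with 1 symbol, 0 with several, 2634 with none), a gene being read from its probe set of highest mean, and promoters were taken from RefSeq (GRCm38.p6), without their transcribed bases.

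One linear model over all mice was fitted with lmFit and eBayes in limma 3.58.1 (R 4.3.3), with Benjamini-Hochberg adjustment over every probe set in a comparison. The methods name a one-way analysis of variance, to which an unmoderated fit is nearest. With 3 arrays per group, their number limits the precision, and the labels name no batch. Permutation tests were exact. The fit was tested on simulated data.

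The 10 genes and the lists (16 lists, 188 genes, of which 169 were measured) were chosen with earlier results of these data known. The text names the 10 genes, the first 3 measured genes of a vascular list, genes past the threshold, and others said to be picked later. Lists of microglia, red blood cells and neighbouring tissue served as background. Alternatives were other models, array weights, quantile and median scaling, a minimum level, other folds, and leaving out each mouse. Leaving out p3 mouse 11 and p1 mouse 19 together was added after seeing the data.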

Additional observations from a re-analysis of the deposited data

How the results depend on the processing

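Of 288 alternative differences of the 10 genes, 277 kept their direction, 10 turned and 1 was 0.00 (Mfsd2a, p3 minus p2, without p2 mouse 8). Many of the 277 could not have turned, so their number is not a measure of stability. Another test, another model of the variance or a minimum level leaves a gene's group means, and so its difference, unchanged. Cldn5, for example, stayed at -0.39 for p3 minus p1 in these settings. The 10 that turned all came from fits with mice left out. With 1 mouse left out, the p3 minus p1 difference ran from -0.19 to 0.15 for Slco1a4, -0.62 to 0.0550 for Slco1c1 and -0.0350 to 0.08 for Tek. The p3 minus p2 difference ran from -0.03 to 0.19 for Mfsd2a and -0.0350 to 0.31 for Slc2a1, and p2 minus p1 from -0.0017 to 0.20 for Abcb1a. Without both p3 mouse 11 and p1 mouse 19, Slc2a1 was -0.0350 for p3 minus p2 and Abcb1a -0.0017 for p2 minus p1. No member passed the study's threshold in any setting but a fold over 1.2, where 1 did (Cldn5, p3 against p1). Members at an unadjusted p under 0.05 between p3 and p1 numbered 0 to 2 with 1 mouse left out (1 in the main fit) and 0 without both. Cldn5 kept p between 0.0137 and 0.0374 under the other models and scalings.

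Counts of probe sets past the threshold were 97 for p3 against p2, 81 for p2 against p1 and 377 for p3 against p1. In the same order they were 41, 38 and 184 by Student's t-test, 38, 36 and 158 at a mean log2 value of at least 6, 335, 268 and 1267 at a fold over 1.2, and 3, 9 and 27 at a fold over 2. The unmoderated one-way model gave 48 for p3 against p2 and 190 for p3 against p1. With 1 mouse left out they ran from 114 to 177, from 117 to 136 and from 474 to 677. Without both mice they were 143 for p2 against p1 and 835 for p3 against p1. The cause was not tested. No paired analysis was possible because the groups are different mice, each with 1 array.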

Other observations

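Markers of other cells were read beside the vascular genes, as values only. Of 9 microglia markers, 8 were higher and 1 lower in p3 than in p1, with C1qa, C1qb and C1qc, which encode the chains of complement C1q, at 0.25, 0.40 and 0.15. These were 0.15, 0.22 and -0.07 without p3 mouse 11 and p1 mouse 19, where 6 of the 9 markers were higher. The p1 mouse 19 had the lowest mean over the list, -0.23, centred on each gene's mean. C1qb was at 8.0, 8.56 and 8.55 in p3 mice 2, 6 and 11, at 8.41, 8.22 and 8.46 in p2 mice 3, 8 and 18, and at 8.03, 7.79 and 8.09 in p1 mice 7, 19 and 20. All p2 mice stood above all p1 mice, while p3 mouse 2 lay within the p1 range. Between p2 and p1, 4 of 5 measured microglia markers were higher in p2, with C1qc at 0.52 (unadjusted p = 0.0116 from limma), and 0.35 (unadjusted p = 0.0599) without p3 mouse 11 and p1 mouse 19. None passed the study's threshold.

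Of 10 hippocampal neuron markers, 9 were lower in p3 than in p1 and 0 were higher, with a median of -0.20 and none at an unadjusted p under 0.05. Among the p3 and p1 mice, the mean over this list stood high only in p1 mouse 7, at 0.56. The p1 mice 19 and 20 were at -0.11 and -0.07, within the p3 range of -0.28 to -0.02. Over the 6 of these markers with p2 values, p2 mouse 3 was the highest of all 9 mice, at 0.64. The p1 mouse 7 followed at 0.49, and the rest lay at -0.33 to 0.01. Prox1, C1ql2 and Dsp of the dentate gyrus differed by -0.44, -0.39 and -0.54. The 2 red blood cell genes measured, Alas2 and Slc4a1, differed by -0.15 and 0.00. Of 14 choroid plexus markers, 11 were lower and 3 higher in p3 than in p1, with Ttr, Folr1 and Clic6 at -2.43, -0.32 and 0.05. Ttr differed by -3.72 (unadjusted p = 0.000322) without p3 mouse 11 and p1 mouse 19. Of 12 thalamus markers 11 were higher in p3 than in p1, with Rgs16, Synpo2 and Tcf7l2 at 0.85, 1.51 and 1.54. This turned without p3 mouse 11 and p1 mouse 19, where 5 were higher and 7 lower, with these 3 at -0.37, 0.47 and 0.14. Lhx9, a homeobox gene of this list, rose by the study's threshold in p2 against p1, at 7.47, 7.51 and 7.44 in p2 mice 3, 8 and 18 and 6.99, 6.39 and 6.59 in p1 mice 7, 19 and 20 (difference 0.82, unadjusted p = 0.00168, adjusted p = 0.999 from limma), a difference of 0.68 without p3 mouse 11 and p1 mouse 19. It was at 7.12, 6.74 and 7.33 in p3 mice 2, 6 and 11.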
